A study of Mus musculus with 18 samples.

Results

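The genes described here encode the translation initiation factors (Eif genes) and elongation factors (Eef genes) of mouse 4T1 breast cancer cells. They were chosen by name as every gene symbol that starts with Eif or Eef followed by a digit, except Eif4a1, Eef2k and the kinases whose names start with Eif2ak, which left 57 of 19736 gene names. These genes held 50329 of the 4857967 counts in the table and 24218 of its 1825851 positions. The data are ribose oxidation sequencing (RibOxi-seq) counts. In this assay RNA is fragmented, the 3′ ends that carry no 2′-O-methyl group are removed by oxidation and elimination, and the ends that remain are ligated to a linker and counted at their genomic position.

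Poly(A)-enriched RNA came from 4T1 cells without a Snord67 deletion (4T1 WT) and from a pair of clones with the deletion, named Snord67KO-1 and Snord67KO-2, with 3 replicates of each genotype. Cells of all genotypes carried mCherry and Renilla luciferase, which the labels call mCh/rLuc. Snord67 is a small nucleolar RNA (snoRNA) that guides 2′-O-methylation of U6 snRNA. Each knockout is a single-cell clone made with paired Cas9 nicks, so the deletion and the clone cannot be told apart within 1 clone. Only the 9 oxidized libraries have columns, and the control libraries were not analysed here. A gene total therefore moves with RNA abundance, with the protection of 3′ ends and with the capture of ends, which cannot be told apart here. P-values measure the spread between these replicate libraries.

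Library totals ranged from 625093 to 737219 counts in 4T1 WT, from 491836 to 686776 in Snord67KO-1 and from 212463 to 423278 in Snord67KO-2. Levels are given as CPM, the counts of a gene per 1000000 counts in all of its library. A count of 0 allows up to 3 counts, or 4.07 CPM in the deepest library and 14.1 CPM in the shallowest. These limits cover counting error only, because PCR copies are not marked. The authors marked some positions as mispriming in a column that the methods do not define. Marked rows held 17.8% of the counts of 4T1 WT replicate 2 and between 1.38% and 7.22% of the other libraries. Because that library stands apart, values without it are given beside results in which it weighs heavily. Positions inside the annotated Snord67 gene held 0 counts in 4T1 WT and Snord67KO-2 and 1 count in Snord67KO-1, so these counts give no check of the deletion. From RibOxi-seq the paper reported that knockout cells lost methylated reads at the Snord67 target site of U6 snRNA, which was not examined here. All 6 epithelial markers had counts, with a summed level of 349 to 629 CPM in 4T1 WT, 929 to 1015 CPM in Snord67KO-1 and 686 to 832 CPM in Snord67KO-2. Fibroblast, leukocyte and endothelial markers, 10 genes in all, summed to at most 31.2 CPM per list and library, and Lum was at 0.

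Translation initiation brings the 40S ribosomal subunit, the initiator tRNA and the mRNA together at a start codon. The factor eIF2 carries the initiator tRNA, eIF3 is a large scaffold on the 40S subunit, eIF4F binds the mRNA cap, and eIF1, eIF1A and eIF5 govern start codon selection. During elongation eEF1A delivers aminoacyl-tRNA, the eEF1B subunits recharge eEF1A with GTP, and eEF2 moves the ribosome along the mRNA. Phosphorylation of eIF2 lowers general initiation and raises translation of Atf4, a transcription factor of the integrated stress response.

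Shown first are 9 positions, because single positions held large shares of several gene totals. They are the position with the most counts in each of Eef1a1, Eef2, Eef1g, Eif4ebp1, Eif5 and Eif3c, and 3 further unmarked positions of Eef1a1 and Eef2. Each line gives the gene, the GRCm38 position of the counted end, and 25 bases of the annotated transcript (GENCODE M21) from 5′ to 3′. The counted base is the last base before the capitals, and the capitals mark the 6 bases that follow it. The first 5 positions were marked mispriming and the last 4 were not.
Eef1a1, chr9:78478823, minus strand: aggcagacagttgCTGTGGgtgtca
Eef2, chr10:81182076, plus strand: cttcctggacaaaCTGTAGgcagcc
Eef1g, chr19:8977370, plus strand: gaggacaccctctCTGTGGcactgc
Eif4ebp1, chr8:27273373, plus strand: tgtcggaactcacCTGTGGccaaaa
Eif5, chr12:111540504, plus strand: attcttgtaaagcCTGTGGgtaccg
Eef1a1, chr9:78480311, minus strand: agaccagcaaataCTATGTgaccat
Eef2, chr10:81179092, plus strand: gattgaccccgtcCTGGGCaccgta
Eif3c, chr7:126556759, minus strand: actacaagtttgaCTACAAggccca
Eef1a1, chr9:78479344, minus strand: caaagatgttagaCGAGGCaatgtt

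These 9 positions lie in coding sequence, and of the 10 highest positions by mean CPM 1, in Eef1a1 and not printed, lies in a 3′ UTR. Over the whole table, the most frequent bases after marked positions spell CTGTAG. At least 4 of these 6 bases were present after 97.1% of the marked positions with annotated transcript sequence and after 4.58% of the unmarked ones. In the translation factor genes the shares were 97.8% of 459 marked and 3.71% of 22496 unmarked positions. The motif was read from these marked rows on the transcribed strand only, and a match describes the letters and not a cause. The sequence of the linker listed in the paper's supplement also begins with CTGTAG. Whether the linker bears on the marks was not tested.

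Rows marked mispriming held 9885 counts of the translation factor genes, or 19.6%, against 5.59% of all counts in the table. The marked share of these genes was 21.5%, 46.0% and 10.6% in 4T1 WT replicates 1 to 3. It was 16.4%, 25.8% and 4.87% in Snord67KO-1, and 5.66%, 6.58% and 11.6% in Snord67KO-2. The share in 4T1 WT replicate 2 lay above every other library, and the remaining 4T1 WT libraries overlapped those of both clones. With all rows, translation factor genes took 1.05% ± 0.289 (SD, n = 3) of a 4T1 WT library. They took 1.07% ± 0.0376 of a Snord67KO-1 library and 0.922% ± 0.128 of a Snord67KO-2 library. Without marked rows in numerator and total, the shares were 0.817% ± 0.0933, 0.941% ± 0.0579 and 0.867% ± 0.0993. The 3 genotypes overlapped in the shares with all rows. Without marked rows Snord67KO-1 lay between 0.890% and 1.00%. Its lowest library, at 0.8895%, was nearly equal to the highest 4T1 WT library, at 0.8888%.

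**Figure D1:**
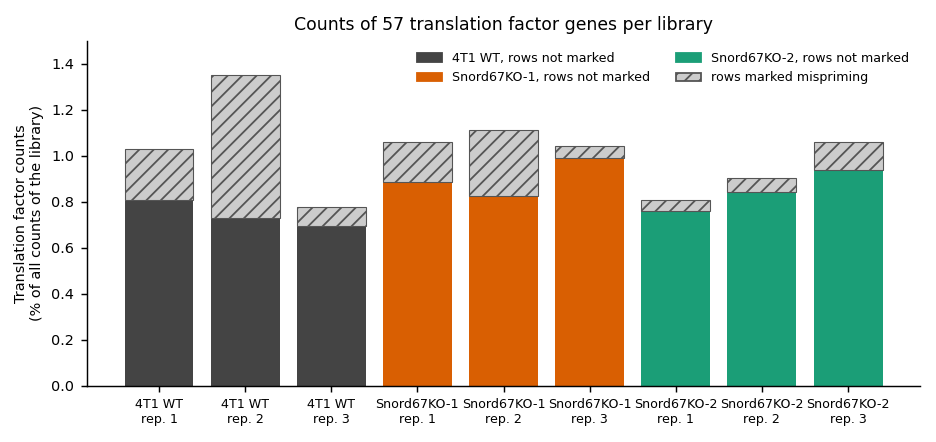
Counts of the 57 translation factor genes as a percentage of all counts of each library, split into rows not marked (coloured by genotype) and rows marked mispriming (hatched). 4T1 WT replicate 2 is the highest bar at 1.35%, and 46.0% of its translation factor counts were at marked rows.

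Among the 57 genes, the elongation factors gave the highest levels. Per kilobase of annotated exon and without marked rows, Eef1a1 had 1405 ± 265 CPM per kb (SD, n = 9 libraries) and Eef2 had 304 ± 56.5 CPM per kb. The eEF1B subunits Eef1b2 and Eef1g followed with 126 ± 20.3 and 110 ± 14.6 CPM per kb, and Eif1 had 101 ± 20.7 CPM per kb. Among these last 3 genes, neighbours in the order differed by less than the larger of their SDs, while Eef1b2 and Eif1 differed by more than either SD. Eif5a (71.5 ± 18.4 CPM per kb), Eif3h (70.6 ± 19.0) and Eif3c (66.3 ± 43.5) came next and also overlapped. Eef1a1, Eef2 and Eef1g together held 53.3% to 66.4% of the translation factor counts of a library.

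By CPM over the whole gene and with all rows, the 10 highest genes were Eef1a1 (4173 CPM, mean of 9 libraries), Eef2 (1527), Eef1g (417), Eif4g2 (358), Eef1b2 (313), Eif3c (229), Eif1 (211), Eif3a (202), Eif4a2 (181) and Eif3e (181). Eif4g2 encodes a relative of eIF4G that does not bind eIF4E, and Eif4a2 encodes an RNA helicase of eIF4F. At the other end, Eef1a2, the eEF1A form of muscle and neurons, had 5 counts, and Eif4e1b, the oocyte form of eIF4E, had 1 count. Eif2s3y, the Y-linked copy of the eIF2 gamma subunit, had 3 counts in all, while its X-linked partner Eif2s3x had 467.

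Translation factor counts came mainly from mature mRNA. With all rows, 77.7% ± 2.29 (SD, n = 9) lay in coding sequence, 13.8% ± 1.54 in 3′ UTRs, 2.49% ± 0.403 in 5′ UTRs and 1.82% ± 0.461 in introns. In all other protein-coding genes, 23.3% ± 3.88 lay in coding sequence and 17.8% ± 1.19 in 3′ UTRs, and introns held 56.4%. The intron share of translation factor genes was 1.65% to 2.33% in 4T1 WT, 1.39% to 2.58% in Snord67KO-1 and 1.17% to 1.74% in Snord67KO-2, so the genotypes overlapped with all rows. Without marked rows it was 2.45% to 2.51% in 4T1 WT and 1.11% to 1.83% in Snord67KO-2, which did not overlap, while Snord67KO-1 overlapped both. The Snord67KO-2 range rested on 139 intron counts in all. In all other protein-coding genes the unmarked intron share was 54.6% to 65.4% in 4T1 WT and 57.1% to 61.5% in Snord67KO-2. Those ranges overlapped.

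**Figure D2:**
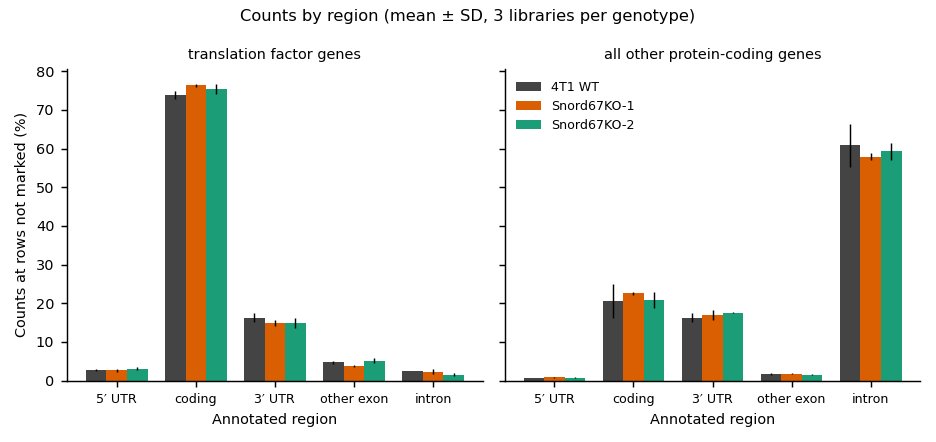
Share of counts at unmarked rows in each annotated region for translation factor genes (left) and all other protein-coding genes (right); bars are means and lines are SD of 3 libraries per genotype. Coding sequence took 73.8% to 76.3% of translation factor counts by genotype mean.

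For the comparison of genotypes, gene totals were tested with edgeR's quasi-likelihood test and Benjamini-Hochberg adjustment over all genes that reached 10 counts in 3 or more libraries, at a threshold of 0.05. With all rows 46 of the 57 translation factor genes passed the count filter, among 6291 genes tested. Without marked rows 44 passed, among 5748 genes. The genes not tested in either fit were Eef1a2, Eef2kmt, Eif1ad, Eif1b, Eif2b3, Eif2b4, Eif2s3y, Eif4e1b, Eif4e3, Eif4ebp3 and Eif5a2, and Eif2d and Eif4ebp2 were not tested without marked rows. All 3 contrasts with 4T1 WT share its libraries.

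In Snord67KO-1, genes of start codon selection, of eIF2, of eIF3 and of eIF4F were called lower than in 4T1 WT, and Eif3e was called higher. With all rows, 1 of the 46 tested genes was higher and 9 were lower, against 10% higher, 8.17% lower and 18.2% in either direction among all genes tested. The median log2 fold change was -0.25 over these genes and -0.04 over all genes tested. Without marked rows 1 of 44 was higher and 9 were lower, against 11.6% and 8.65% of all genes tested (20.2% in either direction), and the medians were -0.25 and -0.02. Of the genes called, 9 were called in both fits, and the fits differed in Eef1g and Eif1.

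Few of these genes were called in Snord67KO-2. With all rows edgeR called 0 of 46 genes, against 2.43% higher, 0.747% lower and 3.18% in either direction among all genes tested. At an unadjusted p under 0.05 there were 8 genes, 4 of them higher and 4 lower. This is given without the share over all genes tested, so it is not a result about these genes. DESeq2 also called 0 with all rows. Without marked rows 1 of 44 was lower, against 0.922% of all genes tested, and 0 were higher, against 3.06%, with 3.98% called in either direction. DESeq2 also called 1 gene without marked rows, in the higher direction, and did not call Eif3c. The median log2 fold change of these genes was 0.09 with all rows and 0.04 without marked rows, beside -0.03 and -0.02 over all genes tested.

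The normalization bears on the counts of calls. TMM factors, which scale libraries so that most genes do not change, moved the median log2 difference of all genes in the fit with all rows by -0.12 in Snord67KO-1, by 0.24 in Snord67KO-2 and by 0.35 between the clones, compared with scaling by library totals. Under library totals Snord67KO-1 had 548 genes higher and 138 lower in the fit with all rows, in place of 632 and 514. The translation factor calls were then 1 higher and 1 lower with all rows, and 3 higher and 5 lower without marked rows. All log2 differences below are relative to the TMM scale, whereas CPM levels and their overlaps use library totals without TMM. No called gene changed direction in any alternative.

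**Figure D3:**
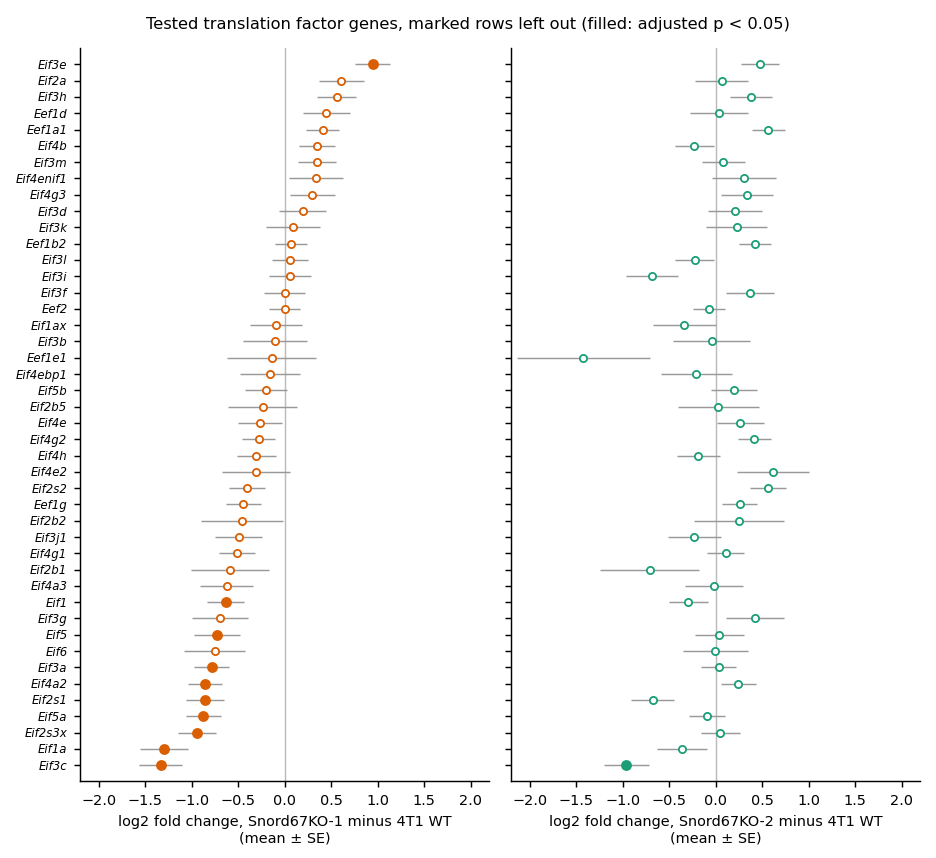
Log2 fold change of each tested translation factor gene in Snord67KO-1 (left) and Snord67KO-2 (right) minus 4T1 WT, without marked rows; lines are SE and filled points have an adjusted p under 0.05. Of 44 genes, 10 are filled on the left and Eif3c alone on the right.

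In the eIF3 complex genes were called in both directions. All 13 of its genes in the list were tested, and in Snord67KO-1 1 was higher and 2 were lower in either fit. Among all genes tested, 10% were higher and 8.17% lower with all rows, and 11.6% and 8.65% without marked rows. Eif3c encodes a core subunit of the complex. Without marked rows its level was 302, 640 and 215 CPM in 4T1 WT, 192, 169 and 140 CPM in Snord67KO-1, and 138, 174 and 198 CPM in Snord67KO-2. All 6 clone libraries lay below all 4T1 WT libraries, and 4T1 WT replicate 2 was far above the others. Eif3c was lower by edgeR in Snord67KO-1 (log2 fold change -1.33 ± 0.23 SE, adjusted p = 0.000461) and in Snord67KO-2 (-0.96 ± 0.24, adjusted p = 0.0264). With all rows the difference in Snord67KO-1 was -1.20 ± 0.22 (adjusted p = 0.00146). It was called under every alternative of both fits, with differences between -1.55 and -0.94. In Snord67KO-2 with all rows the difference was -0.79 ± 0.23 and was not called (adjusted p = 0.0728), and without 4T1 WT replicate 2, any single Snord67KO-2 library, TMM or edgeR the call without marked rows was lost.

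Eif3e, another eIF3 subunit, went the opposite way. Its level without marked rows was 129, 128 and 120 CPM in 4T1 WT, 240.5, 278 and 313 CPM in Snord67KO-1, and 143, 180 and 152 CPM in Snord67KO-2. All clone libraries lay above all 4T1 WT libraries, and the clones did not overlap. Eif3e was higher by edgeR in Snord67KO-1 (0.95 ± 0.19, adjusted p = 0.00154; with all rows 1.04 ± 0.24, adjusted p = 0.00572) under every alternative of both fits. In Snord67KO-2 the difference was 0.47 ± 0.21 and was not called (adjusted p = 0.227). Eif3a, the largest eIF3 subunit, had 210, 248 and 240 CPM in 4T1 WT, 153, 125 and 186 CPM in Snord67KO-1, and 186, 222 and 242 CPM in Snord67KO-2. It was lower in Snord67KO-1 (-0.79 ± 0.19, adjusted p = 0.00518 by edgeR), whose libraries lay below all 4T1 WT libraries, while Snord67KO-2 overlapped 4T1 WT. With all rows the Eif3a call was lost under library totals, DESeq2 and 6 of 9 fits that left out 1 library.

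Of 6 genes of start codon selection 4 were tested. In Snord67KO-1, 3 were called lower without marked rows and 2 with all rows, against 8.65% and 8.17% of all genes tested. Without marked rows Eif1a was called in 15 of 15 alternatives, Eif1 in 10 and Eif5 in 8; the Eif1 and Eif5 calls were both lost under library totals and DESeq2. Eif1 had 244, 282 and 248 CPM in 4T1 WT, 139, 193 and 236 CPM in Snord67KO-1, and 172, 205 and 196 CPM in Snord67KO-2, so that all clone libraries lay below all 4T1 WT libraries. It was lower in Snord67KO-1 without marked rows (-0.64 ± 0.20, adjusted p = 0.0311 by edgeR) and was not called with all rows (-0.53 ± 0.24, adjusted p = 0.132). In Snord67KO-2 its difference was -0.29 ± 0.21 and was not called (adjusted p = 0.497). Eif1a had 55.7, 78.1 and 55.8 CPM in 4T1 WT, 25.0, 24.1 and 36.9 CPM in Snord67KO-1, and 23.9, 47.1 and 56.3 CPM in Snord67KO-2. Its difference in Snord67KO-1 was -1.30 ± 0.26 (adjusted p = 0.00139). Snord67KO-2 overlapped 4T1 WT and differed by -0.36 ± 0.27. Eif1ax, also an eIF1A gene and the remaining tested gene of this group, was not called in Snord67KO-1. Per kilobase of exon without marked rows it had 7.26 ± 1.01 CPM per kb (SD) in 4T1 WT and 7.85 ± 1.19 in Snord67KO-1. In Snord67KO-2 it had 5.62 ± 3.07 CPM per kb. Eif5, the GTPase-activating partner of eIF2, was lower in Snord67KO-1 in both fits, at -0.73 ± 0.25 without marked rows (adjusted p = 0.0407) and -0.94 ± 0.24 with all rows (adjusted p = 0.0139). Marked rows held 40.4% of its counts, and the position printed above held 37.5% of them, from 10.7% in the lowest library to 68.1% in 4T1 WT replicate 2.

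Of the eIF2 subunits, the alpha and gamma subunits were lower in Snord67KO-1, which were 2 of the 4 genes tested among 6 of eIF2 and its partners. These 4 were tested without marked rows, where 8.65% of all genes tested were lower. Eif2s1, the alpha subunit that stress kinases phosphorylate, had 74.3, 112 and 72.2 CPM in 4T1 WT, 54.7, 46.0 and 59.1 CPM in Snord67KO-1, and 43.0, 52.6 and 48.9 CPM in Snord67KO-2, with no overlap of either clone with 4T1 WT. Its difference was -0.86 ± 0.20 in Snord67KO-1 (adjusted p = 0.00543 by edgeR) and -0.68 ± 0.23 in Snord67KO-2, which was not called (adjusted p = 0.108). The Snord67KO-1 call was lost under library totals and DESeq2, and with all rows it held in 12 of 18 alternatives. For the average of both clones it was -0.77 ± 0.18 (adjusted p = 0.00826). Eif2s3x, the gamma subunit, had 136, 116 and 96.9 CPM in 4T1 WT and 84.3, 52.6 and 70.9 CPM in Snord67KO-1 (-0.94 ± 0.20, adjusted p = 0.00275). That call held in all 15 alternatives without marked rows and in 12 of 18 with all rows. It had 85.9, 105 and 135 CPM in Snord67KO-2, which overlapped 4T1 WT (0.05 ± 0.21). The beta subunit Eif2s2 had 120, 154 and 112 CPM in 4T1 WT, 92.1, 118 and 121 CPM in Snord67KO-1, and 167, 152 and 196 CPM in Snord67KO-2. It was not called against 4T1 WT in either clone, with differences of -0.40 ± 0.19 and 0.56 ± 0.20. Of the 5 genes of eIF2B, which reloads eIF2 with GTP, 3 were tested and 0 were called by edgeR in Snord67KO-1 or Snord67KO-2. Without marked rows 20.2% and 3.98% of all genes tested were called in these contrasts.

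In the eIF4F group, which comprised 11 genes with 9 tested, Eif4a2 was the 1 gene called in Snord67KO-1. The share of all genes called lower was 8.17% with all rows and 8.65% without marked rows. Its level without marked rows was 219, 227 and 166 CPM in 4T1 WT, 126, 129 and 129 CPM in Snord67KO-1, and 243, 205 and 208 CPM in Snord67KO-2. Snord67KO-1 lay below both other genotypes, which overlapped. The difference from 4T1 WT was -0.86 ± 0.18 (adjusted p = 0.00256 by edgeR). Eif4a2 is also a snoRNA host: 5 annotated snoRNAs lie within it, and 110 of its counts, or 12.9%, lay inside them. With rows inside snoRNAs left out, an alternative chosen after seeing the data, the difference with all other rows was -0.69 (adjusted p = 0.0380), beside -0.78 ± 0.22 with all rows. The call held in all 15 alternatives without marked rows, but with all rows it was lost under library totals, DESeq2 and 4 of 9 fits that left out 1 library. The cap-binding protein Eif4e had differences of -0.27 ± 0.23 in Snord67KO-1 and 0.26 ± 0.25 in Snord67KO-2, and neither was called. The scaffold Eif4g1 had 197, 164 and 143 CPM without marked rows in 4T1 WT, 147, 105 and 154 CPM in Snord67KO-1, and 158, 144 and 196 CPM in Snord67KO-2. The genotypes overlapped, and its differences of -0.51 ± 0.19 and 0.11 ± 0.20 were not called. Eif4g2 had 342, 326 and 323 CPM in 4T1 WT, 284, 311 and 346 CPM in Snord67KO-1, and 353, 429 and 423 CPM in Snord67KO-2. Its Snord67KO-2 libraries lay above all others, but its differences from 4T1 WT were not called (-0.28 ± 0.18 in Snord67KO-1, 0.41 ± 0.18 in Snord67KO-2).

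Eif5a, which helps the ribosome past difficult peptide bonds, had 220, 208 and 197 CPM in 4T1 WT and 136, 114 and 142 CPM in Snord67KO-1. It was lower in Snord67KO-1 (-0.88 ± 0.19, adjusted p = 0.00256 by edgeR; called in 15 of 15 alternatives without marked rows and 14 of 18 with all rows), while Snord67KO-2 spanned 124, 172 and 235 CPM and overlapped both (-0.10 ± 0.19 from 4T1 WT).

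**Figure D4:**
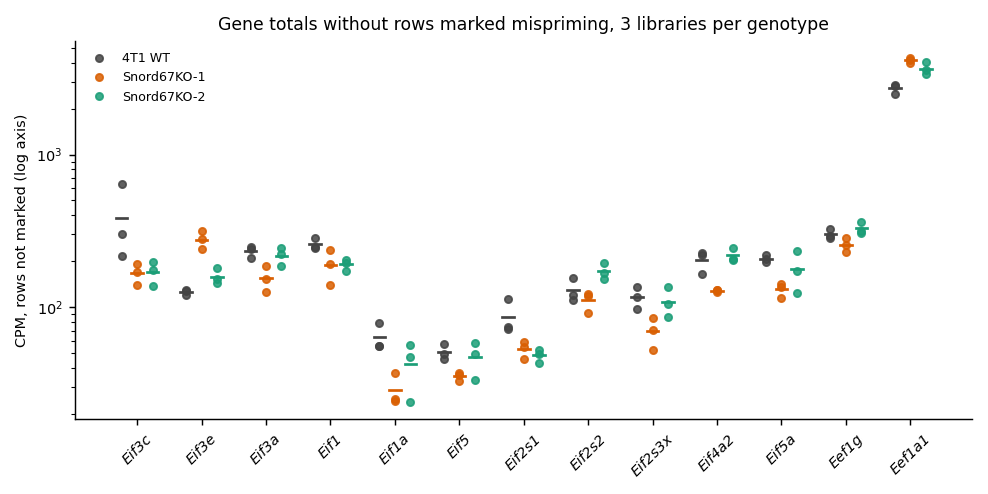
Level of 13 translation factor genes in each library without marked rows, on a log axis in CPM; points are libraries and short lines are genotype means. The genes were drawn because each was called in some contrast of these same libraries, so their separation is not a further result. The 3 Snord67KO-1 libraries lie below all 4T1 WT libraries for Eif3c, Eif3a, Eif1, Eif1a, Eif5, Eif2s1, Eif2s3x, Eif4a2, Eif5a and Eef1g, and above them for Eif3e and Eef1a1.

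For Eef1g and Eef1a1 the calls differed with and without marked rows. Eef1g, the eEF1B gamma subunit, had 457, 1030 and 322 CPM with all rows in 4T1 WT, 275, 323 and 287 CPM in Snord67KO-1, and 329, 369 and 359 CPM in Snord67KO-2. It was lower with all rows in Snord67KO-1 (-1.07 ± 0.25, adjusted p = 0.00763 by edgeR) and in the average of both clones (-0.75 ± 0.21, adjusted p = 0.0302). The Snord67KO-1 call was lost under library totals and without Snord67KO-1 replicate 1. Without marked rows its levels were 324, 286 and 294 CPM in 4T1 WT, 230, 254 and 284 CPM in Snord67KO-1, and 315, 363 and 308 CPM in Snord67KO-2. The differences were then -0.44 ± 0.19 (adjusted p = 0.105) and -0.09 ± 0.16, and neither was called. Without 4T1 WT replicate 2, Eef1g was called lower in Snord67KO-1 both with all rows (-0.69 ± 0.18, adjusted p = 0.0118) and without marked rows (-0.58 ± 0.17, adjusted p = 0.0156). The call of the average was also lost under DESeq2, under library totals, and without any 1 of 4T1 WT replicate 2, Snord67KO-1 replicates 1 and 3, and each Snord67KO-2 replicate.

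Eef1a1 had 2832, 2865 and 2483 CPM without marked rows in 4T1 WT, 4170, 3975 and 4302 CPM in Snord67KO-1, and 3374, 3564 and 4050 CPM in Snord67KO-2. All clone libraries lay above all 4T1 WT libraries. The average of both clones was higher (0.49 ± 0.15, adjusted p = 0.0448 by edgeR), but the call held in 4 of 15 alternatives, and the adjusted p over these alternatives ranged from 0.0133 to 0.328. With all rows, 4T1 WT ranged from 2694 to 5401 CPM and overlapped both clones, of which Snord67KO-2 lay below Snord67KO-1, and the average difference was 0.28 ± 0.20 (adjusted p = 0.387). Eef2 had 2033, 2194 and 1120 CPM with all rows in 4T1 WT, 1665, 2027 and 1459 CPM in Snord67KO-1, and 847, 1009 and 1389 CPM in Snord67KO-2. Without marked rows it had 1139, 1134 and 785 CPM, then 1073, 1058 and 1332 CPM, and then 754, 853 and 1020 CPM. By CPM both clones overlapped 4T1 WT, and all Snord67KO-2 libraries lay below all Snord67KO-1 libraries, with and without marked rows. On the TMM scale Snord67KO-2 differed from Snord67KO-1 by -0.30 with all rows and by -0.07 without marked rows, and neither was called. Eef2 differed by -0.15 ± 0.22 in Snord67KO-1 and by -0.46 ± 0.23 in Snord67KO-2 with all rows, and neither was called. Without marked rows it differed by -0.00 ± 0.17 and -0.07 ± 0.17. Eef1b2 had 293, 297 and 258 CPM without marked rows in 4T1 WT, 314, 324 and 380 CPM in Snord67KO-1, and 277, 335 and 423 CPM in Snord67KO-2. It differed by 0.07 ± 0.17 and 0.42 ± 0.17 without marked rows and was not called.

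For the average of both clones, edgeR called 1 gene higher and 3 lower with all rows, against 6.2% and 5.87% of all genes tested (12.1% in either direction). Without marked rows it called 2 higher (Eef1a1 and Eif3e) and 3 lower (Eif1a, Eif2s1 and Eif3c), against 6.61% and 5.39% (12% in either direction). The 3 genes called in both fits were Eif2s1, Eif3c and Eif3e. The Eif2s1 call with all rows was lost in each of the 9 fits that left out 1 library, whereas without marked rows it held in all of them.

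The clones also differed from each other. With all rows 5 of 46 translation factor genes were higher in Snord67KO-2 than in Snord67KO-1 and 0 were lower, against 1.8% and 2.19% of all genes tested (3.99% in either direction). The 5 were Eif2s2, Eif2s3x, Eif3a, Eif4a2 and Eif5a. Without marked rows 8 of 44 were higher and 0 were lower, against 2.84% and 3.55% (6.38% in either direction), and the additional genes were Eef1g, Eif3g and Eif4g2. Eif4a2 had the smallest adjusted p (1.10 ± 0.19, adjusted p = 0.00198), and it was called in all 15 alternatives without marked rows. The direction of the count depended on scaling. Under library totals 0 of the 46 were called with all rows, and without marked rows 1 was higher (Eif4a2) and 3 were lower (Eif3e, Eif3i and Eif4b). For all genes the split under library totals was 27 higher and 185 lower with all rows, in place of 113 and 138. With all rows the translation factor count also fell to 0 without Snord67KO-1 replicate 1, without Snord67KO-2 replicate 1 and without Snord67KO-2 replicate 2.

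A list of 46 other genes of translation and its control (release factors, ribosome recycling, regulators and targets of eIF2 phosphorylation and of mTOR) was compared in the same fits. Of these 34 were tested without marked rows, and 3 were higher and 6 lower in Snord67KO-1, against 11.6% and 8.65% of all genes tested. With all rows 36 were tested, and 2 were higher and 4 lower, against 10% and 8.17%. The lower ones included 4 genes of the eIF2 stress response: Atf4 (-0.78 ± 0.22, adjusted p = 0.0158 by edgeR), Asns (-1.21 ± 0.24, adjusted p = 0.00112), Trib3 (-1.18 ± 0.29, adjusted p = 0.00696) and Ppp1r15a (-2.55 ± 0.53, adjusted p = 0.00212). The remaining lower genes without marked rows were Abce1, a ribosome recycling factor, and Tufm, the mitochondrial elongation factor. Ddit3, Ppp1r15b and the Eif2ak kinases are also in the list and were not among the genes called in Snord67KO-1 without marked rows. The stress response as a set was not tested. The higher ones were Tpt1 (1.01 ± 0.17, adjusted p = 0.000461), Mknk2 and Rptor. In Snord67KO-2 Ncbp2, a cap-binding protein of the nucleus, was the 1 gene called (higher, 1.62 ± 0.41, adjusted p = 0.0264). Between the clones Atf4 and Asns were higher and Rptor was lower in Snord67KO-2.

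Single positions were examined next, because a 2′-O-methylated nucleotide leaves protected ends at 1 position. Of the positions that reached 10 counts in 3 or more libraries, 26 of 2092 were in translation factor genes, in 10 genes. They held 20.4% of the counts of these genes, 11 were marked and 15 were not. None was called by edgeR in any contrast, either by count or set against the gene's counts elsewhere, where all 26 were among 2051 positions tested. The share of all positions called by count was 0.0478% in each contrast with 4T1 WT and 0% between the clones, and 0% in the relative test. DESeq2 also called 0 of the 26. At an unadjusted p under 0.05, the count test gave 0, 5, 2 and 2 positions for Snord67KO-1, Snord67KO-2, the average of both clones and the clones against each other, and the relative test gave 1, 8, 8 and 0, all of them lower. These unadjusted counts are given without the share over all positions tested, and none of these positions passed adjustment. They do not show a lean of these genes alone. In the relative test of the average contrast the median over all positions tested was also negative, as given below. The highest CPM was in 4T1 WT replicate 2 at 19 of the 26 positions. In simulated data of the average contrast, 58% of positions with a 4-fold change were recovered and 0.5% of those with a 2-fold change, so smaller differences were not detectable at this depth.

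The leading position in Eef1a1, in exon 8 and 374 bases from the transcript end, had 382, 1674 and 154 counts in 4T1 WT, 386, 528 and 133 counts in Snord67KO-1, and 43, 83 and 191 counts in Snord67KO-2. As a share of the counts of Eef1a1 this was 15.2%, 48.5% and 9.14%, then 12.2%, 21.3% and 4.30%, and then 5.66%, 5.95% and 10.1%. The share in 4T1 WT replicate 2 was the highest of the 9, and the other two 4T1 WT libraries overlapped both clones. Set against the gene's other counts, the average difference was -1.90 ± 0.68 (adjusted p = 0.266 by edgeR), and -0.36 ± 0.55 without 4T1 WT replicate 2.

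The leading position of Eef2, in its last exon, had 655, 657 and 206 counts in 4T1 WT, 392, 461 and 83 counts in Snord67KO-1, and 18, 62 and 159 counts in Snord67KO-2. It held 34.3% of all counts of Eef2, between 8.28% and 46.9% by library. Its share was 29.4% to 46.9% in 4T1 WT and 10.0% to 27.0% in Snord67KO-2, which did not overlap, while Snord67KO-1 overlapped both. The average difference in that relative test was -1.04 ± 0.59 (adjusted p = 0.357 by edgeR), and -0.82 ± 0.66 without 4T1 WT replicate 2. The Eef1g position in exon 8 of 10 had 106, 497 and 19 counts in 4T1 WT, 32, 41 and 4 counts in Snord67KO-1, and 3, 5 and 24 counts in Snord67KO-2. In 4T1 WT replicate 2 it held 75.5% of the counts of the gene. Its average difference in that relative test was -3.19 ± 1.00 (adjusted p = 0.266), and -1.09 ± 0.86 without that library.

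Eif4ebp1 encodes a repressor that binds eIF4E, and its marked share was the highest among translation factor genes with 100 or more counts. Marked rows held 65.9% of its counts, and the position in exon 2 held 63.6%, from 5.88% to 89.6% by library. Its gene total was 106, 211 and 35.2 CPM with all rows in 4T1 WT, 75.7, 110 and 24.8 CPM in Snord67KO-1, and 28.2, 38.0 and 44.9 CPM in Snord67KO-2. Its difference in Snord67KO-2 was -1.30 ± 0.49 with all rows, -0.83 ± 0.45 with all rows but without 4T1 WT replicate 2, and -0.21 ± 0.38 without marked rows, and none was called. Eif4e2, a relative of eIF4E that binds caps, followed with 48.7% marked, and Eif5, Eef2 and Eef1g had 40.4%, 38.6% and 36.3%.

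Among unmarked positions the highest was Eef1a1 at chr9:78480311, in exon 3, with 67, 121 and 13 counts in 4T1 WT, 80, 80 and 17 counts in Snord67KO-1, and 13, 13 and 19 counts in Snord67KO-2. It held 0.550% to 3.51% of the gene by library, and the genotypes overlapped. The unmarked Eif3c position in exon 14 of 21 had 22, 123 and 15 counts in 4T1 WT, 25, 20 and 2 counts in Snord67KO-1, and 1, 0 and 14 counts in Snord67KO-2, and held 18.8% of the counts of Eif3c. With the leading position of each gene left out, an alternative chosen after seeing the data, Eif3c remained lower in Snord67KO-1.

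Of the 26 positions, 19 had their highest CPM in 4T1 WT replicate 2, which were 10 of the 11 marked and 9 of the 15 unmarked positions. This library held 39.9% of the counts at the 26 positions and 17.2% of all translation factor counts. Over the 26 positions the median average difference in that relative test was -1.37, beside -0.46 over all positions tested. Both sets were kept by a filter on raw counts, and the Snord67KO-2 libraries were the shallowest. Such a filter can favour positions that are low in Snord67KO-2, so a negative median alone is not a result. The part of the filter in either median was not tested. Without 4T1 WT replicate 2 the medians were -0.38 over the 18 positions that still passed and -0.22 over all. The first base after the counted end was C at 11 of 11 marked and 10 of 15 unmarked positions, beside 25.9% of all unmarked positions with sequence in the table. The part of mispriming in these unmarked positions was not tested.

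**Figure D5:**
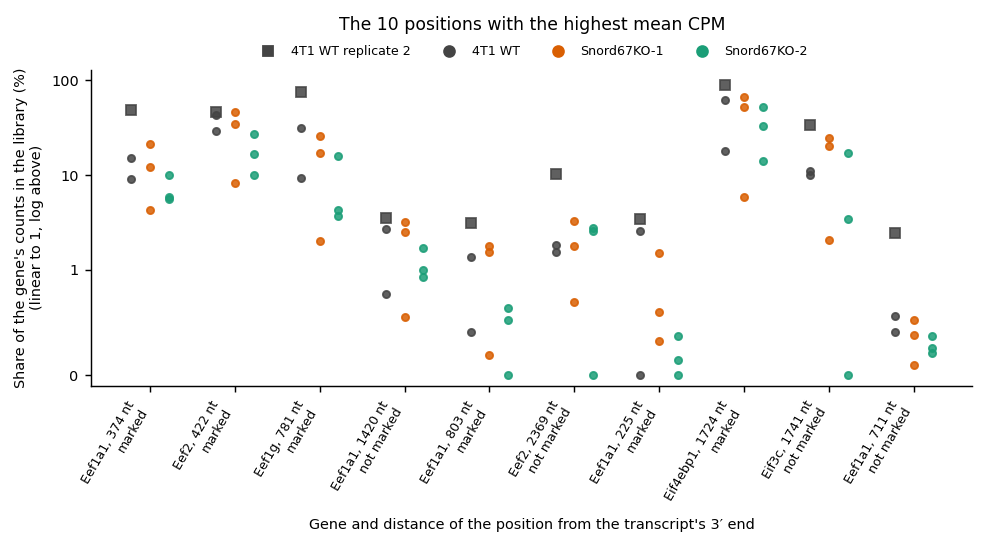
Share of the gene's counts at each of the 10 positions with the highest mean CPM, in every library, on an axis that is linear to 1% and logarithmic above; squares are 4T1 WT replicate 2 and positions are named by gene and by distance from the 3′ end of the transcript. The square is the highest point at all 10 positions, 6 of them marked and 4 unmarked.

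Within 7 translation factor genes lie 14 annotated snoRNA entries. The hosts are Eef1b2, Eef2, Eif3a, Eif4a2, Eif4g1, Eif4g2 and Eif5. Rows named for the host genes gave 198 counts inside them, or 0.393% of translation factor counts. Summed over the 3 libraries of 4T1 WT, Snord67KO-1 and Snord67KO-2 in turn, Snord2 in Eif4a2 had 12, 7 and 10 counts. Gm26447 in the same gene had 40, 17 and 9 counts, and Gm23262 in Eif4g2 had 26, 16 and 15. Snord66 in Eif4g1 had 6, 8 and 4 counts, Snord37 in Eef2 had 3, 1 and 3, and Snora28 in Eif5 had 5, 8 and 1 under its own name. These sums are given without a test.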

How the data were processed

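The authors fragmented poly(A) RNA, removed unprotected ends by oxidation–elimination and added a linker before PCR. Submitters' processing notes name cutadapt, STAR and mm10, while the methods name a later mouse build. The counts deposited by the authors are 3′ ends per genomic position with a gene name, not normalized; how reads with several map places were counted is not given in the sources used here, so Eef1a1 and other genes with processed copies are uncertain. Positions were annotated with GENCODE M21 (GRCm38), in which 98.5% of positions with a matching name lay inside that gene.

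Counts were summed per gene with and without rows marked mispriming and divided by the library total. All 9 libraries (3 per genotype) were fitted with edgeR 4.0.16 in R 4.3.3 (TMM, quasi-likelihood), with genes or positions kept at 10 counts in 3 libraries. The relative position test took as offset the logarithm of 1 plus a gene's counts elsewhere, where these reached 50. Replicate libraries of a genotype differed by more than sampling noise (chi-square per degree of freedom from 1.28 to 12.4). The fits were tested on simulated data: for gene totals of the average contrast (6291 genes), 38.5% of genes changed 2-fold and 95% of those changed 4-fold were recovered. Alternatives covered normalization, DESeq2 1.42.0, count filters, Rn45s, a replicate block and each library left out.

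The genes, lists and tests were chosen with earlier results of these data known. Named were the 10 genes with the highest mean CPM, up to 5 called genes with the smallest p per contrast and fit, the 5 largest marked shares among genes with 100 or more counts, snoRNA hosts, the 10 highest positions, and other translation genes past the threshold. Other translation factor genes (Eif1ax, Eif3g, Eif3h, Eif3i, Eif4b, Eif4e, Eef1a2, Eif4e1b, Eif2s3y) were named after their values were seen. Control libraries were not analysed here.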

Additional observations from a re-analysis of the deposited data

Results flagged for a closer look

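The clones differed from each other in 8 translation factor genes, all higher in Snord67KO-2 than in Snord67KO-1 on the TMM scale. These are the edgeR calls between the clones given above, repeated here, and not a further test. With all rows the log2 differences were 1.12 for Eif4a2, 1.02 for Eif2s2, 1.06 for Eif2s3x, 0.87 for Eif3a and 0.85 for Eif5a. Without marked rows they were 1.10 for Eif4a2, 0.96 for Eif2s2, 0.98 for Eif2s3x, 0.82 for Eif3a, 0.78 for Eif5a, 0.69 for Eif4g2, 0.70 for Eef1g and 1.11 for Eif3g. Scaling by library totals kept the sign of each and the call of Eif4a2 without marked rows, and ended the other calls.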

How the results depend on the processing

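The numbers below are counts of translation factor genes called, in the order Snord67KO-1, Snord67KO-2 and the clone average, each against 4T1 WT, then Snord67KO-2 against Snord67KO-1; with all rows they were 10, 0, 4 and 5, and without marked rows 10, 1, 5 and 8. With all rows, library totals without TMM gave 2, 0, 2 and 0, and DESeq2 gave 5, 0, 2 and 2. No filter on low counts gave 2 genes in Snord67KO-2, and a minimum of 5 counts or leaving out Rn45s gave 3 between the clones. Of the alternatives chosen after seeing the data, leaving out marked rows and unmarked ones that match CTGTAG at 4 or more bases gave 13, 1, 7 and 9, leaving out the leading position of each gene gave 14, 2, 7 and 9, and leaving out rows inside snoRNAs gave 11, 0, 4 and 3. Without marked rows, library totals gave 0 in Snord67KO-2 and 4 between the clones, and DESeq2 gave 3 for the average and 2 between the clones. Adjusted p-values that DESeq2 gave as NA stayed NA. All counts under alternatives in this section are given without the share of all genes called in the same fit. A rise or fall among them is therefore not a result about these genes. Leaving out 1 library gave 2 to 13, 0 to 2, 1 to 5 and 0 to 8 genes with all rows, and 8 to 13, 0 to 1, 4 to 5 and 2 to 10 without marked rows. The lowest Snord67KO-1 count with all rows, 2, was without Snord67KO-1 replicate 1. Leaving out Rn45s moved the share of translation factor counts to 1.35% in 4T1 WT, 1.40% in Snord67KO-1 and 1.30% for Snord67KO-2, and leaving out marked rows moved that of Snord67KO-1 to 0.941%. The sign changed only at uncalled positions, in the average contrast. For Eef1a1 at 78480311 the log2 difference by count was 0.080 without Rn45s, 0.11 with a replicate block, and -0.58 to 0.64 with 1 library left out. With 1 library left out it ranged by count from -1.44 to 0.45 for Eef1a1 at 78478823, from -1.40 to 0.36 at 78479436, from -1.99 to 0.15 at 78479344 and from -1.86 to 0.28 for Eef2 at 81179092; in the relative test it ranged from -1.86 to 0.12 for that Eef2 position and from -2.35 to 0.15 for Eif3c at 126556759. The upper end of each range was without 4T1 WT replicate 2. The cause was not tested. Same-number libraries of different genotypes had correlations from -0.154 to 0.355, 2 of 9 of them over 0.1. Both of these paired 4T1 WT with Snord67KO-1, at 0.355 for replicate 2 and 0.301 for replicate 3. Across numbers, 4T1 WT replicate 2 and Snord67KO-1 replicate 3 had -0.396, while 4T1 WT replicate 1 and Snord67KO-1 replicate 3 had 0.207. A batch shared by same-number replicates was not tested apart from the replicate block. With that block the counts were 11, 0, 5 and 5 with all rows and 11, 1, 5 and 8 without marked rows. Library totals without TMM do not apply to the relative position test and were not run there.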
